A study of Mus musculus with 6 samples.

Results

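The genes described here are the 3 D-type cyclins (Ccnd1, Ccnd2 and Ccnd3) and the 2 cyclin-dependent kinases they activate (Cdk4 and Cdk6), found by gene name in the deposited count table. All 5 were found, each on 1 row, among 55804 rows, and all 5 passed the low-count filter that left 14651 genes for testing. The samples were 2 groups of 3 RNA-seq libraries from the mouse myoblast line C2C12. The Prr33-gRNA cells carried a CRISPR/Cas9 guide RNA against Prr33 and are labelled as a PRR33 knockdown; the Ctrl-gRNA cells carried a control guide RNA and are labelled WT. Both groups were grown in 20% fetal bovine serum and then kept for 3 days in differentiation medium with 2% horse serum. The labels name no more than 1 line per guide and do not say that the libraries came from separate cultures. An effect of the guide and a difference between derived lines therefore cannot be told apart. The p-values reflect variation among libraries that may be no more than technical.

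D-type cyclins are made in response to mitogens. They bind CDK4 or CDK6, and the active kinases phosphorylate the retinoblastoma protein and its relatives, which releases E2F factors and lets cells enter S phase. Inhibitors of the INK4 family bind CDK4 and CDK6 directly, and p21 and p27 of the CIP/KIP family bind the cyclin-kinase complexes. In myoblasts, cyclin D1 is known to fall when mitogens are withdrawn and to oppose MyoD when it is forced on, whereas cyclin D3 is known to accumulate as the cells differentiate and to be retained in myotubes. The comparison asks how the transcripts of this switch differ between differentiating cells with the Prr33 guide and with the control guide.

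Total counts ran from 17412383 to 19471762 in the Prr33-gRNA libraries and from 17006381 to 19118010 in the Ctrl-gRNA libraries. The targeted gene, Prr33, had 793, 829 and 848 counts in the Prr33-gRNA libraries and 1137, 990 and 913 in the Ctrl-gRNA libraries, and fell by 0.42 on the log2 scale (SE 0.06, edgeR adjusted p = 1.37e-06). Skeletal muscle markers were present in every library, but 7 of 8 were lower in Prr33-gRNA and only Ckm was higher. Their summed level was 14384 to 15132 CPM in Prr33-gRNA and 28660 to 29358 CPM in Ctrl-gRNA. CPM are counts scaled to a common library size, with the TMM method. Of 6 fibroblast markers, the 4 with enough counts to test were lower (781.9 to 846.3 CPM summed, against 1257 to 1362 CPM), Lum was at 0 in every library and Thy1 had a few counts. Marker sums for endothelial, immune, adipocyte, epithelial and neuronal cells reached 1.55 CPM at most in Prr33-gRNA and 1.82 CPM at most in Ctrl-gRNA, with Ptprc, Adgre1, Adipoq, Plin1, Epcam, Krt5, Rbfox3 and Snap25 at 0 throughout. Chromosome 14, which holds none of the 5 genes, took 1.79% to 1.80% of the counts in Prr33-gRNA and 3.00% to 3.01% in Ctrl-gRNA.

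Promoter windows of 300 bases, from 250 before to 50 after a transcription start, were taken from RefSeq on GRCm38.p6 for Ccnd3, Cdk4 and Cdk6. The promoter set used had no window for Ccnd1 or Ccnd2, so their promoters were not examined. Ccnd3 and Cdk6 changed the most among the 5 genes, in opposite directions. The Cdk4 window holds an unusual repeat of a single motif. Capitals mark every E-box, CANNTG, read on both strands. Ccnd3 has 2 RefSeq starts, at 17:47505051 and 17:47593467; in GENCODE M21, 13 of its 21 transcripts begin within 500 bases of the upstream start and 3 within 500 bases of the downstream start.
Ccnd3 upstream start, chr17:47504801-47505100, plus strand: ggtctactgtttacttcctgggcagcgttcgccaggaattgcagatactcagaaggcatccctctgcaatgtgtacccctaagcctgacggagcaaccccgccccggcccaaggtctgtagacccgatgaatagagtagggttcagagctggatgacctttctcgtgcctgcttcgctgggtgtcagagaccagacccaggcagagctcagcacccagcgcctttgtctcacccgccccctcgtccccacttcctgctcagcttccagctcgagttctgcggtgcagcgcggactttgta
Ccnd3 downstream start, chr17:47593217-47593516, plus strand: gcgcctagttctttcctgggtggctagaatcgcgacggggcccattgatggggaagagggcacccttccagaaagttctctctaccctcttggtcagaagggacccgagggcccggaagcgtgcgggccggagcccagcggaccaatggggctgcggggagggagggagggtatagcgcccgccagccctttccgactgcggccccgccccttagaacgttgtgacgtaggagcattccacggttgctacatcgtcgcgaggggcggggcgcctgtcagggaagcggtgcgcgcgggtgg
Cdk4, chr10:127063285-127063584, plus strand: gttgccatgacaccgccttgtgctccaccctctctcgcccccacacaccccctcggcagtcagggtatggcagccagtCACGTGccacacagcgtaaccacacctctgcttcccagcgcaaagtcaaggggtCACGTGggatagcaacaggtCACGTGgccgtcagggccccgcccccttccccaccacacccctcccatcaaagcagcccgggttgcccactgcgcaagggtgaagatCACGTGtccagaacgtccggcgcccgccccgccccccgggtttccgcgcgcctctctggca
Cdk6, chr5:3343643-3343942, plus strand: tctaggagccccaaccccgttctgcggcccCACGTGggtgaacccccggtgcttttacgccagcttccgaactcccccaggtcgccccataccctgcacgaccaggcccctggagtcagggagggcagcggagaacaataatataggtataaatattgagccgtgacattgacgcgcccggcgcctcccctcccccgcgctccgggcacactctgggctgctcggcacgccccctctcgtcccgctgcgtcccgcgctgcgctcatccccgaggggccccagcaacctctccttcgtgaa

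The Cdk4 window holds 4 E-boxes, beginning 172, 118, 98 and 11 bases before the start, and each of them reads CACGTG. That form of the E-box is the one to which Myc and its partner Max are known to bind, and CDK4 is a known Myc target in human cells. The Cdk6 window holds 1 CACGTG, 220 bases before the start, and 1 match to TTTNNCGC, a loose E2F-type pattern, 198 bases before it. That pattern leaves its middle bases open, the letters matched were ttttacgc, and such a match need not be an E2F site. Neither Ccnd3 window holds any E-box, the form CAGCTG favoured by the myogenic factors included, and neither holds the loose E2F-type pattern. Among 32851 RefSeq promoter windows of the same length, 72.3% hold at least 1 E-box of any form and 7.15% at least 1 CACGTG. The form favoured by the myogenic factors is in 16.3% and the loose E2F-type pattern in 5.17%. Both special forms are also counted among the E-boxes. Only 8 of the windows (0.0244%) hold 4 or more copies of CACGTG, that of Cdk4 among them. A match is a description of the letters, and binding was not measured.

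Of the 5 genes, Ccnd3 and Ccnd2 were lower in Prr33-gRNA, Cdk6 was higher, and Ccnd1 and Cdk4 did not pass the test (edgeR quasi-likelihood test, adjusted p below 0.05). In the same test 52.1% of all tested genes passed, 25.5% as higher and 26.6% as lower, so 3 of 5 is a share near the background. The groups did not overlap for Ccnd2, Ccnd3 and Cdk6, as for 57.9% of all tested genes. All fold changes are on the log2 scale, with Prr33-gRNA over Ctrl-gRNA.

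**Figure D1:**
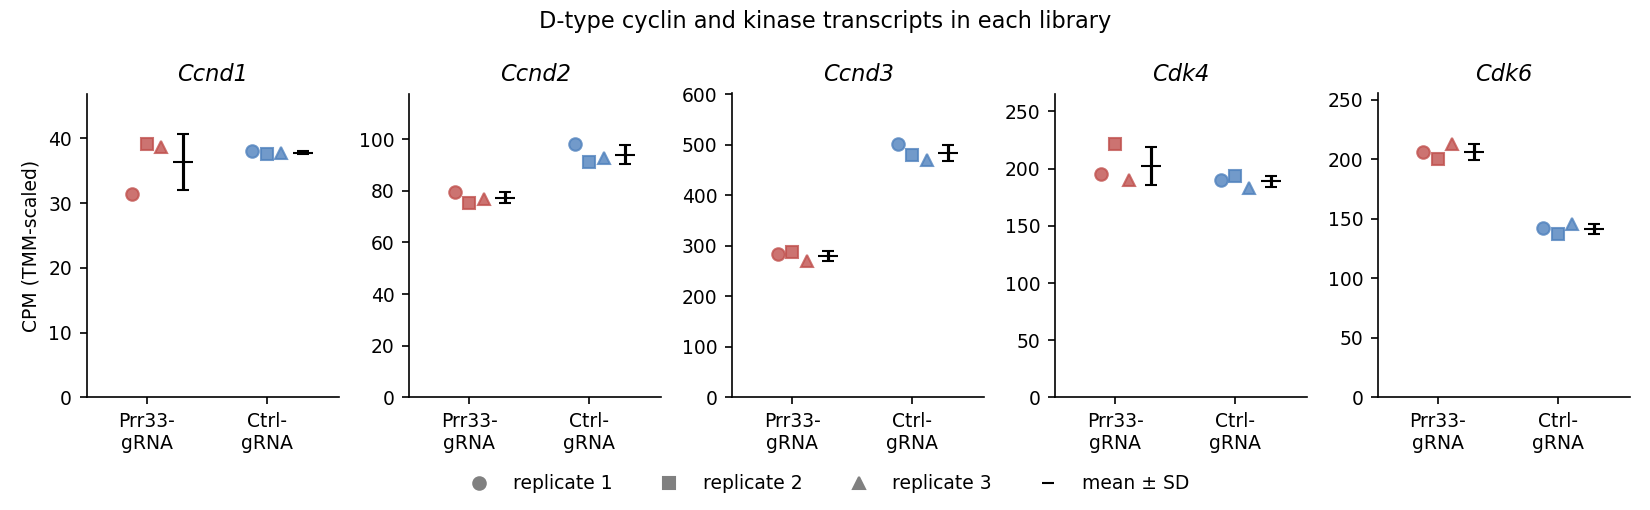
Level of each of the 5 transcripts in CPM (vertical axis, from 0) in the 3 Prr33-gRNA libraries (red) and the 3 Ctrl-gRNA libraries (blue); marker shapes give the replicate number, which does not pair the libraries, and black bars give mean ± SD. The Prr33-gRNA libraries lie below the Ctrl-gRNA libraries for Ccnd2 and Ccnd3 and above them for Cdk6, and the groups overlap for Ccnd1 and Cdk4.

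Ccnd3, the cyclin of differentiating muscle, changed the most of the 5. It had 5211, 5187 and 5395 counts in the Prr33-gRNA libraries, or 283.4, 287.0 and 269.9 CPM, against 9272, 7917 and 7900 counts in the Ctrl-gRNA libraries, or 501.4, 480.2 and 470.5 CPM. Every Prr33-gRNA library lay well below every Ctrl-gRNA library. The level was 280.1 ± 9.01 CPM in Prr33-gRNA and 484.0 ± 15.8 CPM in Ctrl-gRNA (SD, n = 3 each), which is 57.9% of the control level. The log2 fold change was -0.79 (SE 0.04, 95% interval -0.88 to -0.70, edgeR adjusted p = 2.48e-17), and 15.8% of tested genes changed by more in either direction. In bulk RNA, fewer cells of a type and less RNA per cell cannot be told apart. The muscle marker sum given above fell in the same libraries, and its part in the fall of Ccnd3 was not tested. Ccnd3 (ENSMUSG00000034165) spans 17:47505051-47599691 on the plus strand (mm10). Its last 361 bases overlap exons of Bysl on the minus strand, 4.11% of its exonic bases. Bysl had 54.3 CPM in Prr33-gRNA and 56.1 CPM in Ctrl-gRNA and did not pass (-0.05, edgeR adjusted p = 0.549).

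Ccnd2, a D-type cyclin gene that Myc is known to induce, fell by less. It had 79.6, 75.4 and 76.8 CPM in the Prr33-gRNA libraries and 98.1, 91.2 and 92.5 CPM in the Ctrl-gRNA libraries, from 1362 to 1536 counts and 1504 to 1813 counts. The groups did not overlap, but the gap between the nearest libraries was small beside that of Ccnd3. The log2 fold change was -0.28 (SE 0.05, 95% interval -0.39 to -0.17, edgeR adjusted p = 3.50e-05), or 82.2% of the control level. Of tested genes, 48.4% changed by more. Ccnd2 (ENSMUSG00000000184) spans 6:127125162-127152193 on the minus strand. The noncoding genes 9330179D12Rik and Gm43126, which overlap its exons on the other strand by 368 and 372 bases, averaged below 0.1 CPM in both groups.

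Ccnd1, the cyclin most directly induced by mitogens, did not pass. It had 31.4, 39.1 and 38.6 CPM in the Prr33-gRNA libraries, from 577, 707 and 772 counts, and 38.0, 37.5 and 37.8 CPM in the Ctrl-gRNA libraries, from 703, 619 and 635 counts. Replicate 1 of Prr33-gRNA was lower than the other 5 libraries, and the other two Prr33-gRNA libraries lay just above all the controls. Its difference was -0.05 on the log2 scale (SE 0.08, 95% interval -0.21 to 0.10, edgeR adjusted p = 0.582), an interval that spans 0.863-fold to 1.07-fold. Without Prr33-gRNA replicate 1 the estimate was 0.04 (edgeR adjusted p = 0.690), and with libraries scaled by their size alone it was 0.03. Ccnd1 (ENSMUSG00000070348) spans 7:144929931-144939925 on the minus strand, 2.42 Mb from Prr33 on the same chromosome. The gene listed as LTO1 overlaps 1100 of its exonic bases (23.4%) on the other strand; it had 22.0 CPM in Prr33-gRNA and 22.6 CPM in Ctrl-gRNA and did not pass (-0.04). No source used here says whether counting used the strand, so reads in such an overlap cannot be told apart.

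Cdk6, for the kinase whose forced expression is known to hinder differentiation in several cell types, was the only one of the 5 to rise. It had 205.9, 199.9 and 212.7 CPM in the Prr33-gRNA libraries and 142.2, 137.4 and 145.3 CPM in the Ctrl-gRNA libraries, from 3613 to 4252 counts and 2265 to 2630 counts. All Prr33-gRNA libraries lay far above all Ctrl-gRNA libraries. The log2 fold change was 0.54 (SE 0.05, 95% interval 0.45 to 0.64, edgeR adjusted p = 4.51e-12), which is 1.46-fold, and 25.1% of tested genes changed by more. Cdk6 (ENSMUSG00000040274) spans 5:3341485-3531008 on the plus strand. The noncoding genes that overlap it, Gm17590 and Gm42435, averaged below 0.2 CPM in both groups.

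Cdk4, for the kinase that is known to bind MyoD, did not pass. It had 195.7, 221.4 and 190.1 CPM in the Prr33-gRNA libraries and 190.4, 193.2 and 183.5 CPM in the Ctrl-gRNA libraries. The groups overlapped, with Prr33-gRNA replicate 2 above the other 5 libraries. The log2 fold change was 0.10 (SE 0.05, 95% interval -0.00 to 0.20, edgeR adjusted p = 0.104), or 0.997-fold to 1.15-fold. It was 0.03 without Prr33-gRNA replicate 2, and 0.15 with a passing test without Prr33-gRNA replicate 3 (edgeR adjusted p = 0.0247). Scaling by library size alone also gave a call (0.19, edgeR adjusted p = 0.00265). Cdk4 (ENSMUSG00000006728) spans 10:127063534-127067920 on the plus strand, and 641 of its exonic bases (19.7%) overlap Tspan31 on the other strand, which did not pass (-0.11, edgeR adjusted p = 0.121).

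**Figure D2:**
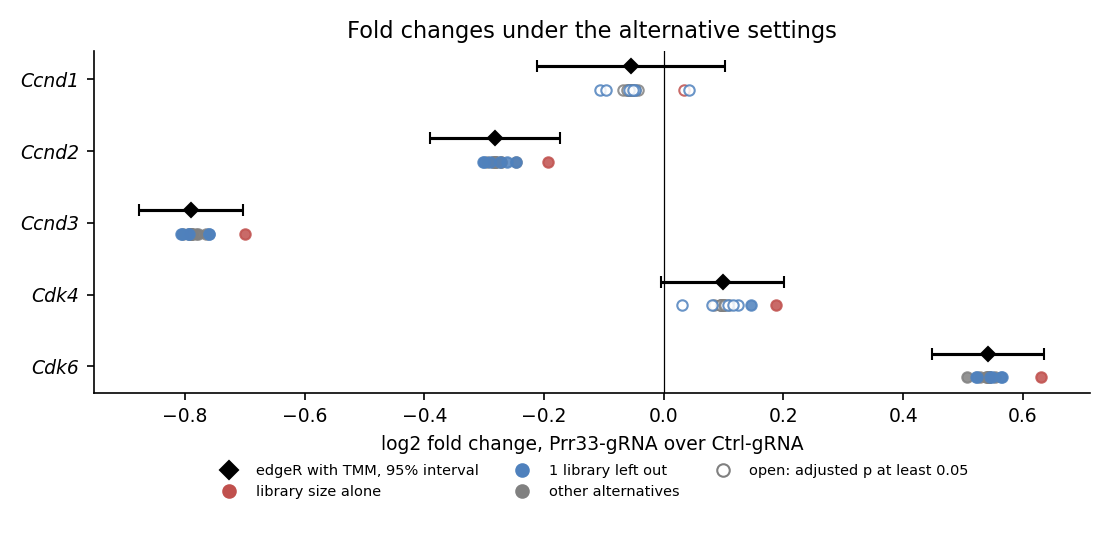
Log2 fold change of each of the 5 genes (horizontal axis): black diamonds with bars are the edgeR estimates with 95% intervals, and circles the same value under 17 alternatives, filled where the adjusted p was below 0.05. Ccnd2 and Ccnd3 stay below 0 and Cdk6 above 0 with filled circles throughout, Ccnd1 has open circles on both sides of 0, and Cdk4 is filled for library size alone and for 1 left-out library.

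Levels of different genes were compared per length, in the deposited FPKM (fragments scaled to gene length and library size). In Prr33-gRNA the order was Cdk4 at 62.1 ± 5.26 FPKM, Ccnd3 at 31.8 ± 1.10, Cdk6 at 14.7 ± 0.421, Ccnd2 at 8.19 ± 0.231 and Ccnd1 at 7.70 ± 0.912 FPKM (SD, n = 3). Ccnd2 and Ccnd1 overlapped there. In Ctrl-gRNA it was Cdk4 at 57.7 ± 1.40 FPKM, Ccnd3 at 54.7 ± 1.65, Cdk6 at 10.05 ± 0.301, Ccnd2 at 9.91 ± 0.364 and Ccnd1 at 7.96 ± 0.0495 FPKM. Across the Ctrl-gRNA libraries the range of Cdk4 overlapped with that of Ccnd3, and that of Cdk6 with Ccnd2. Within every Ctrl-gRNA library Cdk4 still stood above Ccnd3, whereas the order of Cdk6 and Ccnd2 varied from library to library. In Prr33-gRNA neither pair overlapped, and Cdk4 stood above Ccnd3, and Cdk6 above Ccnd2, in every library. Among tested genes, mean FPKM placed Cdk4 at the 95.03th percentile, Ccnd3 at the 92.5th, Cdk6 at the 70.8th, Ccnd2 at the 62.7th and Ccnd1 at the 59.0th.

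The summed FPKM of the 3 D-type cyclins was 47.3, 49.0 and 46.8 in the Prr33-gRNA libraries and 74.9, 71.8 and 71.1 in the Ctrl-gRNA libraries. Ccnd3 made up 68.1%, 66.7% and 65.3% of that sum in Prr33-gRNA and 75.5%, 75.6% and 75.01% in Ctrl-gRNA. The share of Ccnd2 was 17.2% ± 0.766 in Prr33-gRNA and 13.6% ± 0.217 in Ctrl-gRNA, and that of Ccnd1 16.1% ± 1.82 and 10.97% ± 0.282 (SD, n = 3 each). The mixture thus held less Ccnd3 and a larger part of the other two cyclins in every Prr33-gRNA library, although Ccnd2 was itself lower and Ccnd1 did not pass. The ratio of Cdk4 to Cdk6 was 4.09, 4.77 and 3.85 in Prr33-gRNA and 5.76, 6.05 and 5.44 in Ctrl-gRNA. The ratio of summed cyclins to summed kinases was 0.622 ± 0.0242 in Prr33-gRNA and 1.07 ± 0.0276 in Ctrl-gRNA. These sums and ratios are descriptions, with no test.

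**Figure D3:**
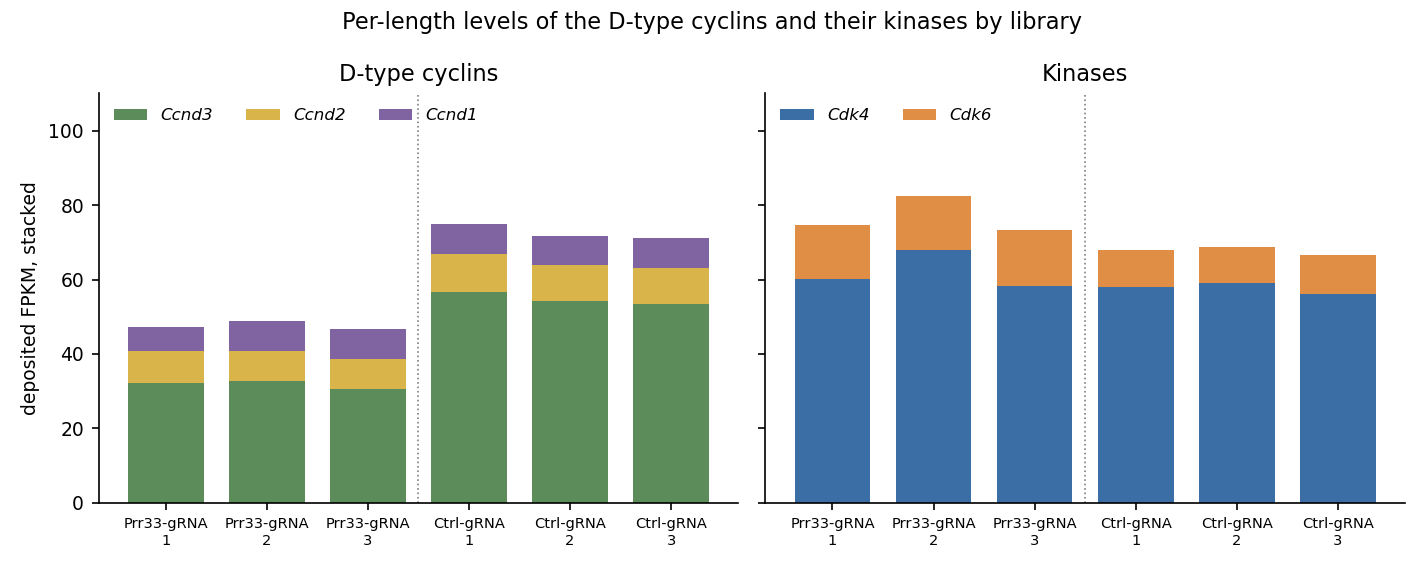
Deposited FPKM (vertical axis, stacked from 0) of Ccnd3, Ccnd2 and Ccnd1 (left) and of Cdk4 and Cdk6 (right) in each library. The cyclin stack is 46.8 to 49.0 FPKM in Prr33-gRNA and 71.1 to 74.9 FPKM in Ctrl-gRNA, with most of the gap in Ccnd3, and the Cdk6 part of the kinase stack is larger in Prr33-gRNA.

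The order between genes depends on the length used, and so does the size of the shares and ratios. The fold change of a single gene does not. The table divides by all exonic bases of a gene (8775 for Ccnd3, 3249 for Cdk4), whereas the principal GENCODE M21 transcript is 2113 bases for Ccnd3 and 2053 for Cdk4. With principal lengths, a setting chosen after the data were seen, Ccnd3 stood above Cdk4 in both groups, at 132.1 ± 4.58 against 98.3 ± 8.32 length-scaled units in Prr33-gRNA and 227.3 ± 6.84 against 91.3 ± 2.21 in Ctrl-gRNA. The share of Ccnd3 among the D-type cyclins was then 85.8% ± 0.721 in Prr33-gRNA and 90.2% ± 0.153 in Ctrl-gRNA. The ratio of Cdk4 to Cdk6 was 5.52 ± 0.623 in Prr33-gRNA and 7.499 ± 0.403 in Ctrl-gRNA, so the direction of both differences was the same. The ratio of summed cyclins to summed kinases was then 1.33 ± 0.0573 in Prr33-gRNA and 2.43 ± 0.0647 in Ctrl-gRNA. It was lower in Prr33-gRNA with either length, but with principal lengths the cyclin sum stood above the kinase sum in both groups, and with the deposited lengths in Ctrl-gRNA alone.

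The rest of the pathway was read from 8 lists with 75 genes in all, ordered by role. Of these, 73 were tested, and 30 were higher, 20 lower and 23 did not pass, with a median log2 fold change of 0.10 against -0.00 for all tested genes. The lists were chosen with earlier results of these data known, and their counts stand beside the background of 25.5% higher and 26.6% lower.

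Among the inhibitors, 3 of 5 tested genes were lower and 1 was higher. Cdkn1a, for p21, had 835.6, 785.1 and 821.6 CPM in Prr33-gRNA and 1505, 1535 and 1469 CPM in Ctrl-gRNA, with no overlap (-0.88, edgeR adjusted p = 1.43e-19). Cdkn2c and Cdkn2d, for the INK4 proteins p18 and p19, fell by 0.27 and 0.41. Cdkn1b, for p27, which also helps cyclin D and CDK4 assemble, rose by 0.20. Cdkn2a and Cdkn2b, the other two INK4 genes, had 0 counts in every library. Of the pocket proteins, which the kinases phosphorylate, Rb1 fell to 120.9, 108.3 and 122.4 CPM in Prr33-gRNA, against 165.3, 171.8 and 167.0 CPM in Ctrl-gRNA (-0.52, edgeR adjusted p = 9.74e-11). Rb1 lies on chromosome 14, where 361 of 400 tested protein-coding genes were lower, with a median of -0.90, and the part of this in the fall of Rb1 was not tested. Rbl2 rose by 0.23, and Rbl1 did not pass (0.11), although it did with library size alone.

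Of 10 E2F and DP genes 4 were higher and 2 lower. Tfdp2, for a partner of E2F proteins, had the largest rise of the 10, to 68.0, 72.8 and 68.6 CPM in Prr33-gRNA, against 40.0, 37.7 and 42.9 CPM in Ctrl-gRNA (0.80). The activator gene E2f1 rose by 0.33 and Tfdp1 by 0.27, whereas E2f2, also an activator, fell by 0.56. E2f8 was close to the threshold (-0.15, edgeR adjusted p = 0.0491), and the number lower was 1 under 10 of 17 alternatives. Among the other cyclins, kinases and CDC25 phosphatases 7 of 11 were higher and 0 lower. The E-type cyclins, which act with CDK2 after the D-type cyclins, both rose: Ccne1 had 39.1, 44.9 and 40.4 CPM in Prr33-gRNA and 27.5, 26.4 and 26.6 CPM in Ctrl-gRNA (0.63, edgeR adjusted p = 1.10e-08), and Ccne2 rose by 0.92. The mitotic genes Ccnb1, Ccnb2 and Cdk1 rose by 0.48, 0.54 and 0.39. Cdk2 itself had 0.10 and did not pass.

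Of 15 S-phase genes that E2F is known to drive, 10 were higher and 1 lower, with a median of 0.28 (14 higher with library size alone). Cdc6, for a factor that loads the replication helicase, rose by 0.97, and Rrm1, Mcm4 and Mcm3 rose by 0.42, 0.46 and 0.45. Mcm6, for another helicase subunit, fell by 0.77. Cyclin-dependent kinases need an activating phosphorylation and a chaperone, and in that list 3 of 6 genes were higher and 1 lower. Cdk7 and Ccnh, for the activating kinase and its cyclin, rose by 0.29 and 0.42, and the chaperone gene Hsp90aa1 rose by 0.51. Cdc37, for the cochaperone that brings CDK4 and CDK6 to HSP90, fell to 157.8 ± 9.88 CPM in Prr33-gRNA, against 190.2 ± 8.05 CPM in Ctrl-gRNA (-0.27).

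Among 8 genes that act on the stability of D-type cyclins, 3 were lower and 1 higher. Fbxo31 and Cryab, for parts of ubiquitin ligases that act on cyclin D1, fell by 0.54 and 0.45, and Usp2, for an enzyme that removes ubiquitin from cyclin D1, fell by 0.21. Gsk3b, for a kinase that marks cyclin D1 for export and degradation, rose by 0.17, and Ambra1, for the adaptor that marks all 3 D-type cyclins, did not pass (-0.13). Of 15 transcription factors known to act on D-type cyclin genes or their partners 9 were lower and 3 higher (8 and 5 with library size alone). Myod1, Jun, Stat5a and Foxo1 fell by 1.59, 0.78, 0.73 and 0.75. Myc fell to 27.8, 32.9 and 31.0 CPM in Prr33-gRNA, against 42.0, 37.8 and 39.1 CPM in Ctrl-gRNA (-0.38, edgeR adjusted p = 8.51e-05). The Cdk4 promoter window holds the 4 CACGTG motifs shown above, and Cdk4 did not pass in the main test. Any link between the levels of Myc and Cdk4 was not tested.

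**Figure D4:**
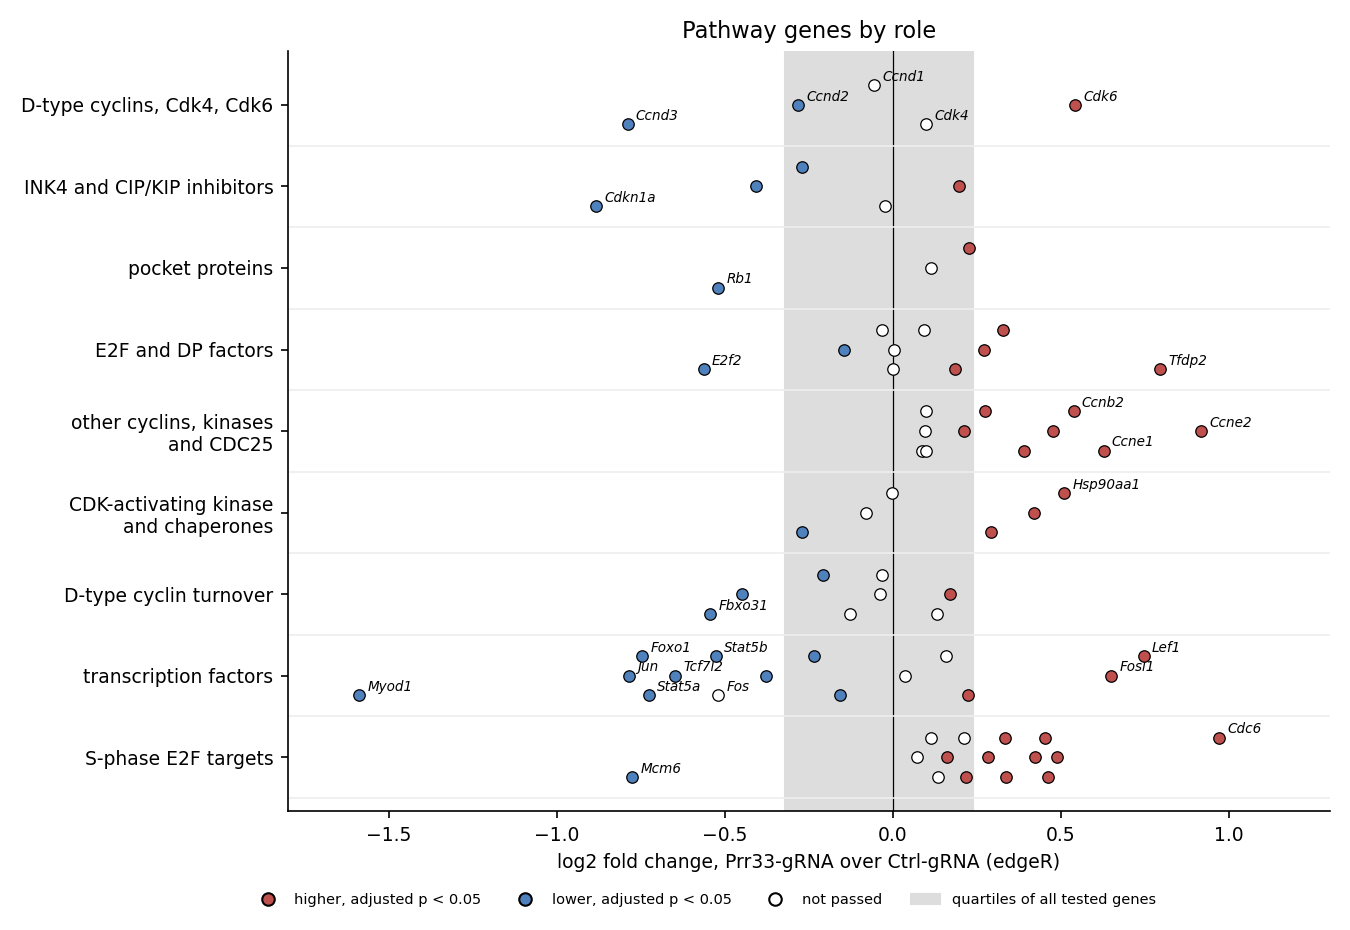
Log2 fold change (horizontal axis) of the 5 genes and of the 73 tested pathway genes, by role; each circle is 1 gene, red where higher and blue where lower past the threshold, white where it did not pass, and the grey band spans the quartiles of all tested genes (-0.32 to 0.24). Inhibitors and transcription factors lie mostly left of 0, and other cyclins, kinases and S-phase genes mostly right of it.

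Likeness to each of the 5 genes was measured as the root mean square difference of mean-centred log2 CPM over the 6 libraries, for 9976 tested coding genes whose mean was 5 CPM or more. Since the libraries form 2 groups, the measure mostly reads the difference between them. Among the closest to Ccnd3 were Tubb6 and Myl4, at distances of 0.025 and 0.027 and with log2 fold changes of -0.81 each. Closest to Ccnd2 were Syngr2, Selenos and Jph1 (0.019 to 0.023), with changes of -0.30, -0.28 and -0.25. Closest to Cdk6 were Gpd2, Tmem64 and Itfg1 (0.016 to 0.028), each higher by 0.55 to 0.56. The nearest to Ccnd1 were Cyb5d1, Slc29a3 and Map1s (0.031 to 0.034), and to Cdk4 Mphosph6, Ankle2 and Cyb5d2 (0.023 to 0.029), and none of these 6 passed.

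Genes beside the 5 loci are given beside the background of 25.5% higher and 26.6% lower among all tested genes. Of 5 tested genes within 100 kb of Ccnd3 3 were lower and 0 higher: Taf8 (-0.38), Med20 (-0.31) and Frs3 (-0.50). Near Cdk6, 2 of 6 were higher and 0 lower, with Fam133b among the higher ones (0.22). Near Cdk4, which did not pass, 5 of 10 were lower and 0 higher, Ctdsp2 (-0.54) and Os9 (-0.52) being the most abundant of them. Beside Ccnd2, Tigar was higher (0.34) and the pseudogene Tpi-rs11 lower (-0.46), and beside Ccnd1 only the overlapping LTO1 was tested. Whether these small counts differ from the background was not tested.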

How the data were processed

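The authors deposited whole-read counts per gene, not normalized, and FPKM per gene, with 1 column per library. The submitters' processing notes name CASAVA, featureCounts 1.5.0-p3, HISAT2 2.0.5 and the build mm10. Positions of the 5 genes in the deposited tables equal GENCODE M21, and the deposited gene length equals summed exonic bases there. Deposited FPKM columns are counts over length and a constant of 1.03 to 1.04 times the library total in Prr33-gRNA and 0.973 to 0.978 times in Ctrl-gRNA.

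Counts were tested with edgeR 4.0.16 in R 4.3.3 (filterByExpr, TMM, robust quasi-likelihood fit, 2 groups, no covariate), with Benjamini-Hochberg adjustment over 14651 genes and a threshold of 0.05, after the fit was tested on simulated data. SE is the absolute log2 fold change over the square root of F. A count of 3 was 0.150 to 0.182 CPM, counting error only. Replicate libraries differed beyond sampling noise, with a chi-square per gene of 2.87 to 5.62. The 333 rows of gene models without an Ensembl ID (0.199% to 0.252% of counts) were kept.

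The 5 genes and the lists were chosen with earlier results of these data known. The rule named the 5 genes, Prr33, the lowest adjusted p values of each list (up to 4), Rb1, Cdkn1a, Cdkn2c and Ccne1, neighbours within 100 kb and the 3 nearest patterns per gene; other list members were named after their values were seen. Some genes that the rule names are not reported here. Alternatives were other scalings (RLE, library size alone), DESeq2 1.42.0, limma-voom (limma 3.58.1), other filters, chromosome 14 left out, a replicate block, limma on FPKM with pseudocounts of 1 and 0.1, single libraries left out and, for counts of genes, a threshold of 0.01. Figures used matplotlib 3.10.9.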

Additional observations from a re-analysis of the deposited data

How the results depend on the processing

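Ccnd2, Ccnd3 and Cdk6 kept their direction and stayed past the threshold under all 17 alternatives, with log2 fold changes of -0.30 to -0.19, -0.81 to -0.70 and 0.51 to 0.63, and Ccnd1 was called under none (-0.11 to 0.04). Cdk4, not called in the main test, was called with library size alone (0.19), which shifts all genes by a median of 0.09, and its values with 1 library left out lay between 0.03 (0.031) and 0.15. Over all genes, library size alone gave 4999 higher and 3103 lower (61.7% higher) in place of 3740 and 3899 (49.0% higher). Deviations from the group means were uncorrelated between same-numbered libraries (-0.0062, -0.013 and 0.0091), so replicate numbers give no pairing. Under a replicate block, 3811 genes rose and 3975 fell, and Ccnd1, Ccnd2, Ccnd3, Cdk4 and Cdk6 had -0.06, -0.28, -0.79, 0.10 and 0.54, with no call changed. The shares of Ccnd1, Ccnd2 and Ccnd3 among D-type cyclins with principal transcript lengths, added after the data were seen, were 6.30%, 7.91% and 85.8% in Prr33-gRNA and 3.98%, 5.84% and 90.2% in Ctrl-gRNA, and the Cdk4 to Cdk6 ratio was 5.52 in Prr33-gRNA and 7.499 in Ctrl-gRNA, since the lengths themselves set these levels. Of 1240 values for pathway genes, 67 changed side of the threshold, in 17 genes, and 0 reversed.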

Other observations

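The other cyclins and cyclin-dependent kinases, taken by gene symbol after the data were seen, moved less than Ccnd3 with few exceptions. Some of them, Ccne1, Ccnb1, Cdk1 and Cdk7 included, were also counted in the pathway lists. Of 21 other cyclin genes tested, 10 were higher, 1 lower and 10 did not pass (edgeR, adjusted p below 0.05). Of all tested genes, 25.5% were higher and 26.6% lower. The log2 fold changes of these cyclins ran from -0.24 to 1.04. The highest was Ccng1, for cyclin G1, a known p53 target, at 418.2 ± 34.9 CPM in Prr33-gRNA and 203.1 ± 9.02 CPM in Ctrl-gRNA (SD, n = 3 each). Ccny, for a membrane-bound cyclin, and Ccnc, of the Mediator complex, rose by 0.40 and 0.39, and Ccnt2, a partner of Cdk9, was the one that fell, by 0.24. Of 17 other cyclin-dependent kinase genes 6 were higher and 4 lower, from -0.26 for Cdk18 to 0.45 for Cdk8, the kinase partner of cyclin C.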
